A study of Mus musculus with 20 samples.

Results

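Oxidative phosphorylation is encoded by 2 genomes, and its genes were followed here in tanycytes and in the whole mediobasal hypothalamus of mice. The genes were taken by symbol: every gene of the deposited comparison tables whose name marks a subunit or assembly factor of complex I (Nduf), a subunit of complex II (Sdha to Sdhd), III (Uqcr and Cyc1), IV (Cox4 to Cox8) or V (Atp5), cytochrome c (Cycs), or a gene of the mitochondrial genome (mt-). This gave 107 of the 44674 genes counted. Of these, 94 are nuclear and 13 are the protein-coding genes of mitochondrial DNA. The nuclear set holds 36 subunits and 8 assembly factors of complex I, 4 subunits of complex II, 9 of complex III, 19 genes placed in complex IV (Ndufa4, now assigned there, and its paralogue Ndufa4l2 among them), 17 in complex V, and Cycs.

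Tanycytes are radial-glia-like cells that line the floor of the third ventricle. In the study they carried the ribosomal protein L10a fused to GFP, so that ribosomes and the mRNAs bound to them could be drawn from a tissue lysate with anti-GFP beads (the immunoprecipitation), while a share of the same lysate was kept as the input. All mice carried a Cre-dependent Rosa26 L10a-GFP allele and were given AAV-Dio2-Cre into the lateral ventricle at 12 weeks of age, with tissue taken 4 weeks later. The Dio2 promoter decides which cells are labelled. IR∆Tan mice were IR fl/fl, so that the same virus removed the insulin receptor, and were fed normal chow diet (NCD). Control mice were IR wt/wt and were fed NCD or, from about 4 weeks of age, high-fat diet (HFD). The length of HFD feeding is 8 weeks in the series design and 12 weeks in the study's methods, and the labels call both control groups IRmKate2, the name of a control virus, although the design gives all groups the Cre virus. Arcuate and median eminence tissue of males and females was pooled from 5 to 7 mice in one source and 4 to 7 in another. There were 3 pools of NCD-fed controls, 3 of NCD-fed IR∆Tan mice and 4 of HFD-fed controls, each with an immunoprecipitate and an input, 20 libraries in all. The comparisons asked what tanycyte ribosomes carry beyond the surrounding tissue, and what loss of the insulin receptor or HFD feeding changes there.

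The respiratory chain passes electrons from NADH (complex I) or succinate (complex II) through complex III and cytochrome c to oxygen at complex IV, and the proton gradient built on the way drives ATP synthase (complex V). All subunits of complex II are nuclear, whereas complexes I, III, IV and V are mosaics: a hydrophobic core is made from mitochondrial mRNAs on ribosomes inside the organelle, and the remaining subunits are made in the cytosol and imported. L10a is a protein of cytosolic ribosomes. In the hypothalamus, mitochondrial function of glia and neurons has been studied for its part in nutrient sensing.

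Each library held 29469101 to 59385265 estimated counts. The targeted gene, Insr, stood at 14.1, 10.0 and 15.6 counts per 1000000 (CPM) in the IR∆Tan immunoprecipitates and at 38.7, 40.3 and 37.5 in the NCD-fed controls, as labelled. Of 19 tanycyte markers tested, 16 were higher and 1 lower in the immunoprecipitate than in the input of NCD-fed controls (median log2 fold change 2.87). All 15 ependymal markers were higher, with a larger median of 5.21, against 36.0% of all genes. The name tanycyte ribosomes is kept here from the design of the study. Lower were 16 of 19 neuron (median -1.03), 9 of 9 microglia, 12 of 12 oligodendrocyte and 7 of 13 astrocyte markers, against 32.8% of all genes. A further 3 astrocyte markers were higher, and no neuron marker was at 0. The HFD-fed libraries stood apart in both fractions. CT010467.1, annotated as ribosomal RNA on chromosome 17, took 72000.3 to 75716 CPM in the HFD immunoprecipitates against 136442 to 180721 in those of NCD-fed mice. In the inputs the order was the opposite, with 43548 to 61838 CPM in HFD against 14846 to 21442. The part of these library differences in the diet results was not tested, and since they follow the diet groups, diet and a difference in library making cannot be told apart.

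Per kilobase of transcript, mt-Co1 (the catalytic subunit of complex IV) was the most abundant gene of the set in the immunoprecipitates of NCD-fed controls, with a mean of 722 CPM per kilobase. Cox7c (402) and Cox6a1 (399), small subunits of complex IV, mt-Nd1 (382), a proton-pumping subunit of complex I, and Atp5b (369), the catalytic beta subunit of ATP synthase, came next. The median level per kilobase was 131 CPM over the 19 complex IV genes and 133 over the 17 of complex V. It was 59.8 over the complex I subunits and 11.9 over the complex I assembly factors. In the inputs of the same mice the mitochondrial genes led by far: their median was 2454 CPM per kilobase against 49.0 for the nuclear genes.

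Messages of the mitochondrial genome were depleted from the tanycyte ribosomes in every group. In NCD-fed controls mt-Co1 stood at 22833, 20092 and 18618 CPM in the 3 inputs and at 1519, 829.1 and 1000.4 CPM in the 3 immunoprecipitates. No value of either fraction came near the other, and the immunoprecipitate was 19.7-fold lower (log2 fold change -4.30 ± 0.36 (SE), adjusted p = 1.25e-07, edgeR's quasi-likelihood test with Benjamini-Hochberg adjustment, as for every adjusted p here). All 13 mitochondrial genes were lower, against 32.8% of the 13568 genes tested (68.9% were called in either direction), with log2 fold changes from -4.59 for mt-Nd6, the only one of them on the light strand, to -3.40 for mt-Co2. All 13 were also lower in IR∆Tan mice (median -4.28, against 32.8% of 13518 genes, with 67.0% called in either direction) and in HFD-fed mice (median -5.91, against 23.1%, with 54.7% called in either direction). In each group every immunoprecipitate was below every input for each of the 13, as for 30.6%, 31.0% and 20.6% of all genes in NCD-fed controls, IR∆Tan and HFD-fed mice.

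Summed over the 13 genes, mitochondrial mRNA made up 4.81, 4.41 and 4.07% of the counts in the NCD inputs and 0.455, 0.256 and 0.276% in the matching immunoprecipitates. The first NCD immunoprecipitate was the highest of all. In IR∆Tan immunoprecipitates the share was 0.286, 0.219 and 0.267%, and in HFD-fed ones 0.0938, 0.129, 0.0502 and 0.0935%. Thus every HFD pool lay below every NCD-fed pool of either genotype. The mitochondrial ribosomal RNAs mt-Rnr1 and mt-Rnr2, which are not translated, ran alongside: together they took 3.40, 1.88 and 0.911% of the counts in the NCD immunoprecipitates, 1.33, 1.11 and 1.46% in IR∆Tan ones and 0.448, 0.664, 0.136 and 0.306% in HFD-fed ones. Nuclear genes of the set together took 0.859 to 0.942% in the 10 immunoprecipitates, with no such gap. In bulk samples, fewer cells of a type and less RNA per cell cannot be told apart. L10a marks cytosolic ribosomes, and how mitochondrial RNA came to be in the immunoprecipitates was not tested.

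**Figure D1:**
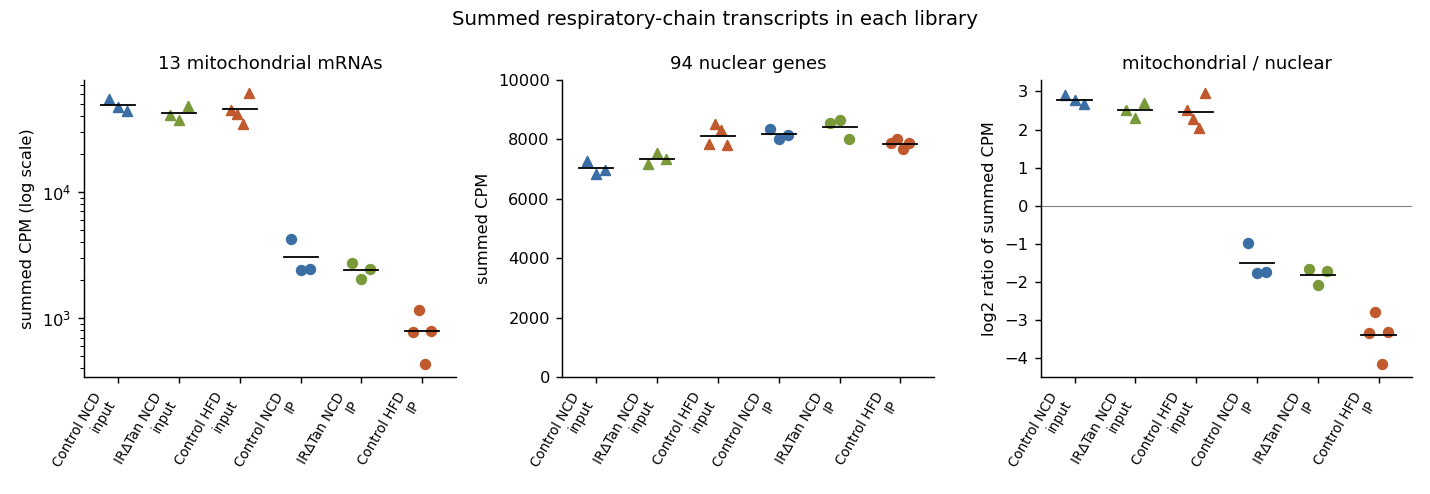
Summed CPM of the 13 mitochondrial genes (left, log scale) and the 94 nuclear genes (middle), and the log2 ratio of the sums (right), 1 point per library, triangles for inputs, circles for immunoprecipitates (IP), lines for group means. The ratio was positive in all 10 inputs and negative in all 10 immunoprecipitates, and the 4 HFD immunoprecipitates lay lowest.

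Genes of the mitochondrial genome overlap, and the library kit is not stated to keep strand, so counts of neighbours are not fully separate. The end of mt-Atp8 and the start of mt-Atp6 share 43 bases on the plus strand (GRCm38 chrM:7927-7969), and mt-Nd4l and mt-Nd4 share 7 (chrM:10167-10173). They are shown because their bases belong to 2 genes of complex V or complex I at once. Capitals are not used here.
mt-Atp8 and mt-Atp6: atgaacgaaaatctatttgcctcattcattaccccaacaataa
mt-Nd4l and mt-Nd4: atgctaa
mt-Nd6 lies on the opposite strand to mt-Nd5 and overlaps its end, so that stretch is shared by 2 genes as well.

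Nuclear genes of the set went the other way in NCD-fed mice: most were higher on tanycyte ribosomes than in the input. Of 91 tested, 63 were higher, against 36.0% of all genes, and 15 were lower, against 32.8%. Their median log2 fold change was 0.54, against 0.03 over all genes tested. Cox8a, a small subunit of complex IV, stood at 86.2, 79.6 and 82.9 CPM in the inputs and 167, 177 and 175 in the immunoprecipitates (log2 fold change 0.96 ± 0.13 (SE), adjusted p = 1.67e-05). Uqcr11 and Uqcrq, small subunits of complex III, were 3.01-fold and 2.57-fold higher. Complex V behaved alike for its small subunits, with Atp5e 2.74-fold and Atp5g2 2.39-fold higher, and so did complex I for Ndufa7 (2.87-fold), Ndufb7 (2.26-fold) and Ndufa12 (1.81-fold).

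By complex, 26 of 36 complex I subunits were higher and 4 lower, 13 of 16 complex IV genes higher and none lower, 13 of 17 complex V genes higher and 3 lower, and 5 of 9 complex III genes higher and 3 lower. Complex II split: the membrane anchor Sdhc (0.83 ± 0.09 on the log2 scale, ± SE) and the iron-sulfur subunit Sdhb (0.46 ± 0.08) were higher, the flavoprotein Sdha was lower (-0.41 ± 0.13), and Sdhd, the other anchor, was at 0.19 ± 0.08 (adjusted p = 0.0549). Genes that were lower against the rest of their complex were mostly large catalytic or core ones. Atp5b stood at 1377, 1325 and 1327 CPM in the inputs and 709, 603 and 809 in the immunoprecipitates, with no overlap (log2 fold change -1.02 ± 0.15 (SE), adjusted p = 2.41e-05). Ndufs1, which carries iron-sulfur clusters of complex I, was at -0.96 ± 0.17, the accessory subunit Ndufa10 at -0.74 ± 0.14, and the complex III core proteins Uqcrc1 and Uqcrc2 at -0.32 ± 0.10 and -0.47 ± 0.10. Cyc1, Atp5a1, Atp5c1 and Ndufb9 were among the others that were lower. Of the complex I assembly factors, Ndufaf8 (1.67 ± 0.12) and Ndufaf3 (0.91 ± 0.10) were among 4 that were higher, and Ndufaf4, Ndufaf1 and Ndufaf5 were lower.

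Transcript length moved with these values. The nuclear genes of the set have a median exonic length of 746 bases, against 2658 bases over genes of the comparison tables. Across the 91 nuclear genes, log2 fold change and log2 length had a Pearson r of -0.67, given as a description over genes that share the same libraries. The shortest 3394 of the genes tested had a median of 0.53. When the trend with length over all genes was removed, 15 nuclear genes were higher (34.2% of all genes under that setting) and 50 lower (32.3%), with a median of -0.25, so the direction for the nuclear set as a whole rested on how length is treated. Cox8a, for one, was then at -0.01. The 13 mitochondrial genes were all lower either way. When libraries were scaled by their totals alone, without TMM factors, the median of all genes was shifted by 0.35 and 72 nuclear genes were higher and 4 lower, with Uqcrc1 turning to 0.031. Over all genes 73.8% of the calls were then higher, against 52.3% with TMM.

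IR∆Tan mice gave a like picture to the NCD-fed controls, with 65 of 92 nuclear genes higher (34.3% of all genes) and 17 lower (32.8%), and a median of 0.46. There too the direction turned with the length trend removed, to 13 higher (33.6% of all genes) and 46 lower (30.3%), with a median of -0.24. In HFD-fed mice 14 of 91 nuclear genes were higher (31.6%) and 31 lower (23.1%), with a median of -0.10. Nuclear genes lay closer to their input in HFD-fed than in NCD-fed mice for 73 of 91, and the median distance, without sign, was 0.24 against 0.62 on the log2 scale. For the mitochondrial genes it was the reverse, since all 13 lay farther from their input in HFD-fed mice. The share of all genes that lay closer was not counted, so the nuclear count cannot be called particular to this set. The shortest 3394 of all genes tested had a median of 0.53 in NCD-fed and 0.05 in HFD-fed mice. The HFD split of the nuclear genes depended on scaling: with library totals, which shifted the median of all genes by 0.46, 54 were higher and 2 lower. Over all genes 91.2% of the calls were then higher, against 57.8% with TMM. Without the third HFD pool 20 nuclear genes were lower in HFD-fed mice in place of 31.

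**Figure D2:**
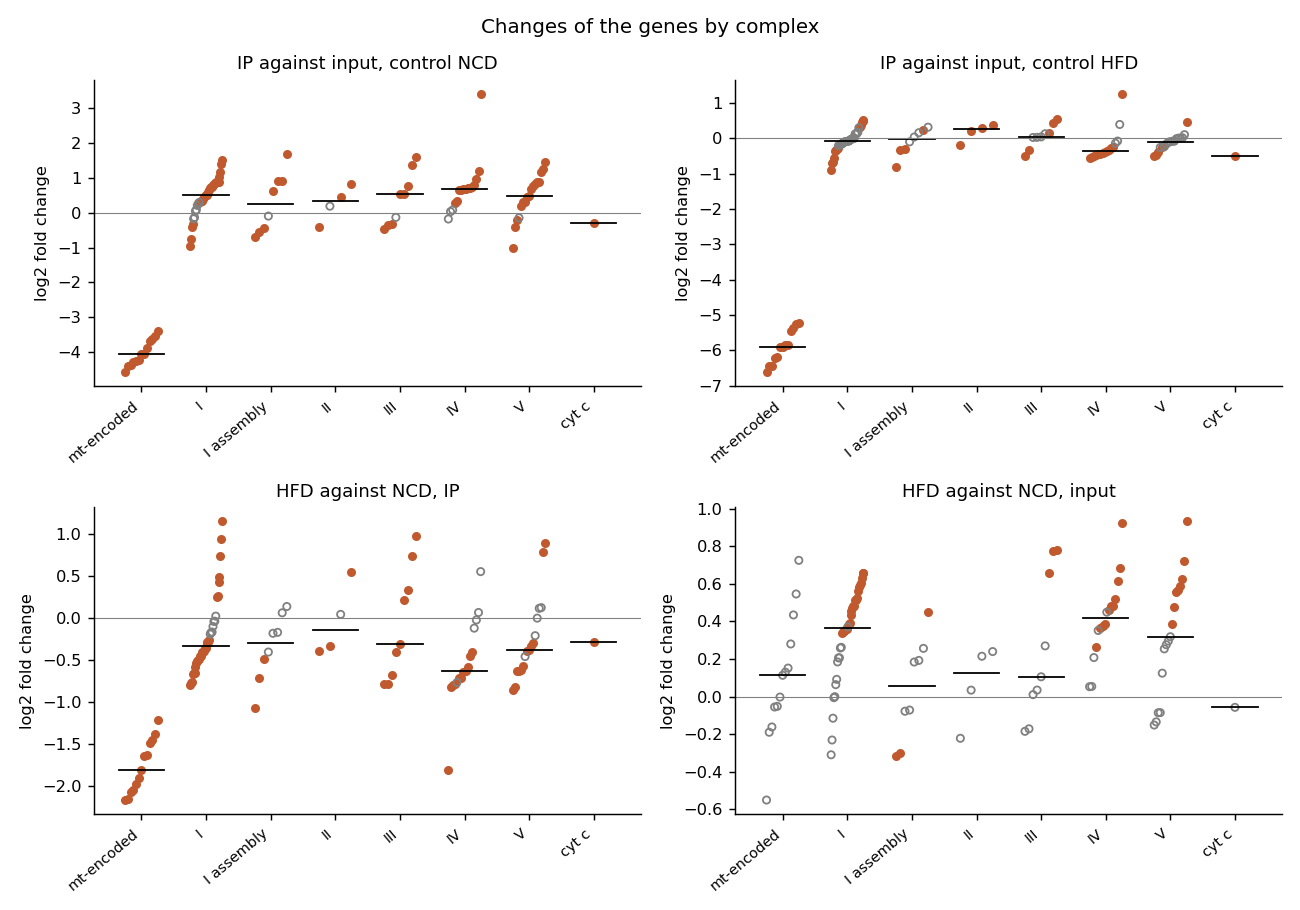
Log2 fold changes of each gene tested, grouped by mitochondrial genome, complex, complex I assembly factors and cytochrome c, for 4 comparisons on separate scales. Filled points passed an adjusted p of 0.05, open points did not, and lines are group medians. The median of the mitochondrial genes lay below that of every nuclear group in both IP-against-input panels and in the HFD-against-NCD immunoprecipitates (-4.05, -5.91 and -1.81), and was 0.11 in the inputs.

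Mitochondrial mRNA in the tanycyte immunoprecipitates was lower in HFD-fed than in NCD-fed mice. mt-Co1 stood at 1519, 829.1 and 1000.4 CPM in the NCD-fed immunoprecipitates and at 250.3, 353, 114 and 249 in the HFD-fed ones. The groups did not overlap, and mt-Co1 was 4.49-fold lower (log2 fold change -2.17 ± 0.30 (SE), adjusted p = 5.37e-05), with a two-sided exact permutation p of 0.0286, the smallest that 3 against 4 pools can give. All 13 mitochondrial genes were lower, against 25.8% of all genes (52.1% in either direction), and each of the 13 was lower in every HFD pool than in every NCD pool, as for 24.5% of all genes. The changes ran from -2.17 ± 0.30 for mt-Co1 and -2.15 ± 0.32 for mt-Cytb, cytochrome b of complex III, to -1.21 ± 0.25 for mt-Nd4l, with a median of -1.81 against -0.03 over all genes. The other complex I core subunits lay at -2.08 (mt-Nd1), -2.05 (mt-Nd6), -1.98 (mt-Nd2), -1.81 (mt-Nd3), -1.65 (mt-Nd4) and -1.39 (mt-Nd5). The complex IV and V members mt-Co2, mt-Co3, mt-Atp6 and mt-Atp8 lay at -1.90, -1.45, -1.63 and -1.49.

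Among the HFD pools the third was the lowest for 10 of the 13 mitochondrial genes and the second the highest for 12, as for mt-Cytb at 63.9, 86.3, 29.8 and 50.7 CPM against 408, 208 and 176 in NCD-fed controls. Leaving out any 1 pool kept all 13 lower, with medians from -2.09 to -1.30. Removing the length trend left 11 of 13 lower, with a median of -1.31. mt-Atp8 (-0.61) and mt-Nd4l (-0.40), the shortest of the 13, no longer passed. 

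In the inputs none of the 13 passed by edgeR or DESeq2 (median 0.11, from -0.55 to 0.73), and 1 had an unadjusted p under 0.05, against 26.0% of all genes. With the input libraries fitted alone, mt-Co1 was lower and mt-Co2 and mt-Atp8 were higher. mt-Co1 stood at 14255, 13716, 10538 and 18974 CPM in HFD-fed against 22833, 20092 and 18618 in NCD-fed inputs, with an overlap. mt-Co2 stood at 2758, 2682, 2246 and 4089 against 2211, 1871 and 1808, and mt-Atp8 at 749, 696, 649.9 and 1038 against 517, 434 and 433. These were the 2 of 13 whose HFD inputs all lay above the NCD inputs, as for 22.3% of all genes. The difference between the fractions was tested itself: the HFD change was lower in the immunoprecipitate than in the input for all 13, against 18.8% of all genes (40.1% in either direction), with a median difference of -1.86, and for 6 of 13 with the length trend removed.

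Nuclear genes split by diet on the ribosomes, with several large core and catalytic subunits higher in HFD-fed mice and most small subunits lower. Of 91 tested, 14 were higher, against 26.3% of all genes, and 54 lower, against 25.8%, with a median of -0.38. The falls rested largely on how length is treated. With the length trend removed, 36 were higher (22.7% of all genes) and 21 lower (26.3%). All of the 14 stayed higher then, and 20 of the 54 stayed lower. Of the 91, 13 lay above and 50 below the NCD pools without overlap, as did 21.2% and 24.5% of all genes. Ndufs1 had the largest rise of the set. It stood at 42.4, 38.6 and 54.8 CPM in NCD-fed and 71.5, 126, 101 and 91.7 in HFD-fed immunoprecipitates (log2 fold change 1.15 ± 0.16 (SE), adjusted p = 5.11e-05). Every HFD pool was above every NCD pool, and the first was the closest to them.

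Complex I had 7 subunits higher and 22 lower. Of its 7 nuclear core subunits, the group that holds the flavin and the iron-sulfur clusters, 5 were higher, among them Ndufs1, the NADH-binding Ndufv1 (0.73 ± 0.14) and Ndufv2 (0.25 ± 0.07), and 1 was lower. Of the 29 accessory subunits 2 were higher, Ndufa10 (0.94 ± 0.13) and Ndufa9 (0.42 ± 0.12), and 21 were lower. Ndufa1 fell from 76.5, 71.6 and 67.6 to 47.1, 32.7, 38.7 and 42.8 CPM with no overlap (-0.80 ± 0.10), and Ndufa12 was at -0.76 ± 0.08. None of the 8 assembly factors was higher and 3 were lower: Ndufaf8, from 28.7, 28.6 and 24.7 to 13.6, 11.2, 11.5 and 14.5 CPM (-1.07 ± 0.11), Ndufaf2 (-0.71 ± 0.11) and Ndufaf3 (-0.49 ± 0.09).

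Complex III divided in the same way, with 4 higher and 5 lower. Uqcrc1 stood at 48.5, 51.5 and 52.2 CPM in NCD-fed and 81.8, 114, 94.0 and 98.2 in HFD-fed immunoprecipitates, 1.96-fold higher (log2 fold change 0.97 ± 0.10 (SE), adjusted p = 7.78e-06), with no overlap. The other core protein Uqcrc2 (0.73 ± 0.10) and cytochrome c1, Cyc1 (0.32 ± 0.06), were also higher. Uqcrfs1, the Rieske protein, was at 0.21 ± 0.08, and its call was lost under 7 of the alternatives, DESeq2 among them. The hinge protein Uqcrh fell from 167, 127 and 141 to 97.5, 67.4, 75.1 and 87.7 CPM (-0.79 ± 0.12), with no overlap, and Uqcr11, Uqcrq, Uqcrb and Uqcr10 were lower too. Cycs, the carrier between complexes III and IV, was at -0.29 ± 0.10 (adjusted p = 0.0199) and lost its call under 6 alternatives, leaving out 1 of several pools among them.

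In complex II the catalytic subunit and the anchors parted. Sdha stood at 320.3, 303 and 355 CPM in NCD-fed and 361, 573, 481 and 434 in HFD-fed immunoprecipitates (log2 fold change 0.54 ± 0.12 (SE), adjusted p = 0.00187). The lowest HFD pool was just above the highest NCD pool. Sdhc (-0.39 ± 0.09) and Sdhd (-0.34 ± 0.08) were lower, and Sdhb was at 0.04 ± 0.07 (adjusted p = 0.672), with overlapping pools.

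Complex IV held no gene that was higher. Of 16 tested, 11 were lower, with a median of -0.64, and they encode nuclear subunits around the mitochondrial core or, for Cox7a2l, a factor that joins complex IV into supercomplexes. Cox8a fell from 167, 177 and 175 to 121, 75.2, 79.2 and 104 CPM (log2 fold change -0.83 ± 0.12 (SE), adjusted p = 9.59e-05). Its groups did not overlap, and HFD pools 2 and 3 lay below the NCD inputs. Cox7a2l was at -0.63 ± 0.09, Cox6b1 at -0.64 ± 0.10, Cox7a2 at -0.72 ± 0.11, Cox7b at -0.59 ± 0.13, Cox6a1 at -0.45 ± 0.13 and Cox4i1 at -0.41 ± 0.08. Cox6a1, Cox6b1 and Cox4i1 turned to 0.12, 0.00015 and 0.086 with the length trend removed. Ndufa4, once assigned to complex I and now to complex IV, was at -0.12 ± 0.11 (adjusted p = 0.373).

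Complex V had 2 genes higher, its catalytic head subunits, and 10 lower. Atp5b stood at 709, 603 and 809 CPM in NCD-fed and 996, 1589, 1359 and 1139 in HFD-fed immunoprecipitates (log2 fold change 0.88 ± 0.14 (SE), adjusted p = 1.59e-04), and Atp5a1, the alpha subunit, at 384, 353 and 421 and 507, 794, 664 and 611 (0.78 ± 0.12). Neither overlapped between the diets. Atp5e, the epsilon subunit, fell from 54.7, 52.1 and 46.0 to 34.2, 20.5, 23.4 and 31.3 CPM, and Atp5l, a membrane subunit, from 122, 122 and 109 to 76.7, 54.5, 56.7 and 72.4 (-0.82 ± 0.11). Atp5g1, Atp5g2, Atp5h, Atp5j, Atp5j2, Atp5k, Atp5d and Atp5mpl were lower as well.

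**Figure D3:**
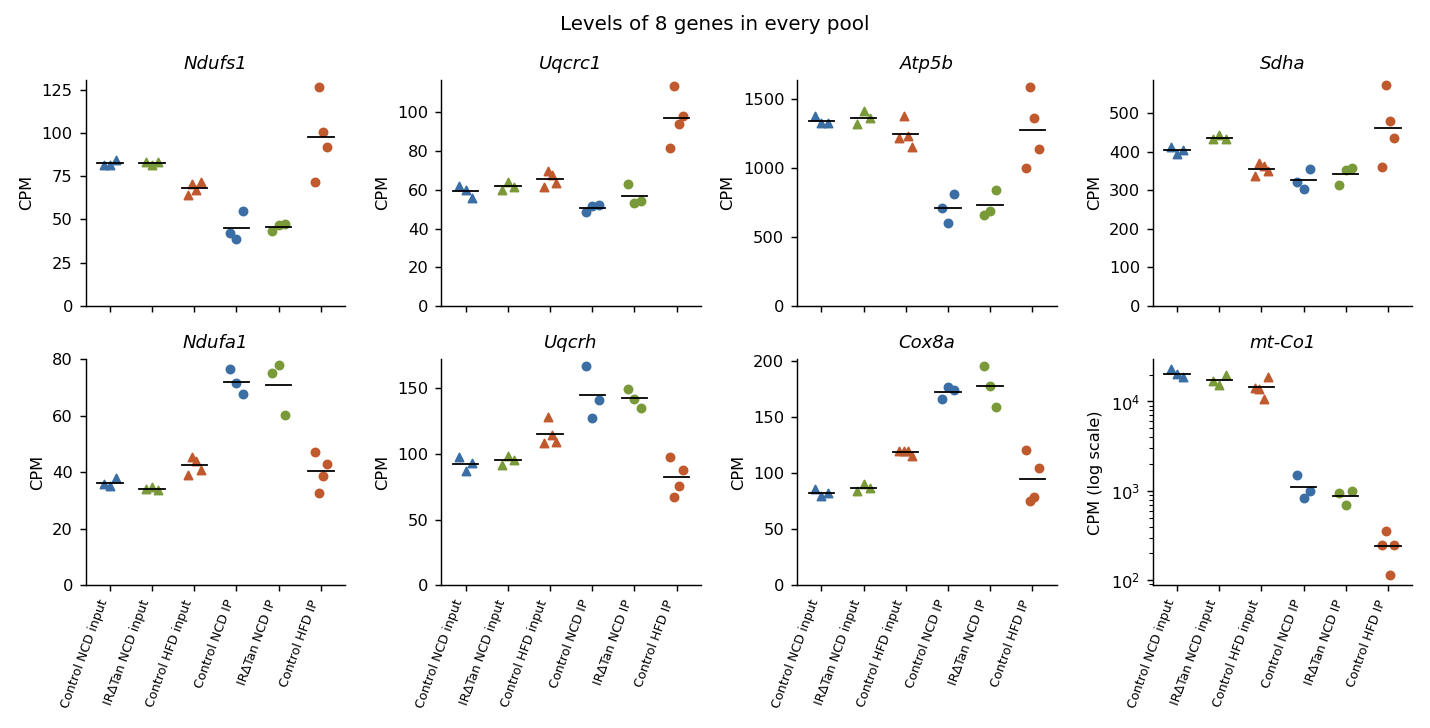
CPM of 8 genes in every library, by group, triangles for inputs, circles for immunoprecipitates and lines for means, with a log scale for mt-Co1 only. Ndufs1, Uqcrc1, Atp5b and Sdha were higher in HFD-fed than in NCD-fed immunoprecipitates, and Ndufa1, Uqcrh, Cox8a and mt-Co1 were lower, without overlap between the control pools of the 2 diets. With the length trend removed Ndufa1 and Uqcrh no longer passed (log2 fold changes -0.11 and -0.15), while the others kept their calls.

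Length moved with the diet result as well. Over the 91 nuclear genes log2 fold change and log2 length had a Pearson r of 0.58, and the shortest 3394 of all genes tested had a median of -0.37 against 0.22 in the longest 3392. With the length trend removed, 36 nuclear genes were higher (22.7% of all genes under that setting) and 21 lower (26.3%), and the median was 0.09. The 14 genes that were higher all stayed higher, among them Ndufs1, Ndufv1, Ndufa9, Ndufa10, Sdha, Cyc1, Uqcrc1, Uqcrc2, Atp5a1 and Atp5b. Of the 54 that were lower, 20 stayed lower, 28 no longer passed and 6 (Ndufa3, Ndufa6, Ndufb5, Ndufs6, Uqcr10 and Atp5k) were called higher.

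The 20 that stayed lower were unevenly spread over the complexes, without a test of that spread. They held 8 of the 11 complex IV genes that were lower, namely Cox5b, Cox6b2, Cox6c, Cox7a2, Cox7a2l, Cox7b, Cox7c and Cox8a, but none of the 5 of complex III. From complex I there were Ndufa12, Ndufa2, Ndufb2, Ndufb4, Ndufb8 and Ndufs4 of 22, and from complex V Atp5g1 and Atp5l of 10. Ndufaf3, Ndufaf8, Sdhc and Cycs made up the rest. Complex IV did not move 1 way only under that setting: 3 of its 16 genes were called higher, and the median of the 16 was -0.18. With the trend removed Cox8a was at -0.25 in place of -0.83, and Ndufaf8 at -0.50 in place of -1.07, whereas Uqcrc1 was at 1.09 in place of 0.97.

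**Figure D4:**
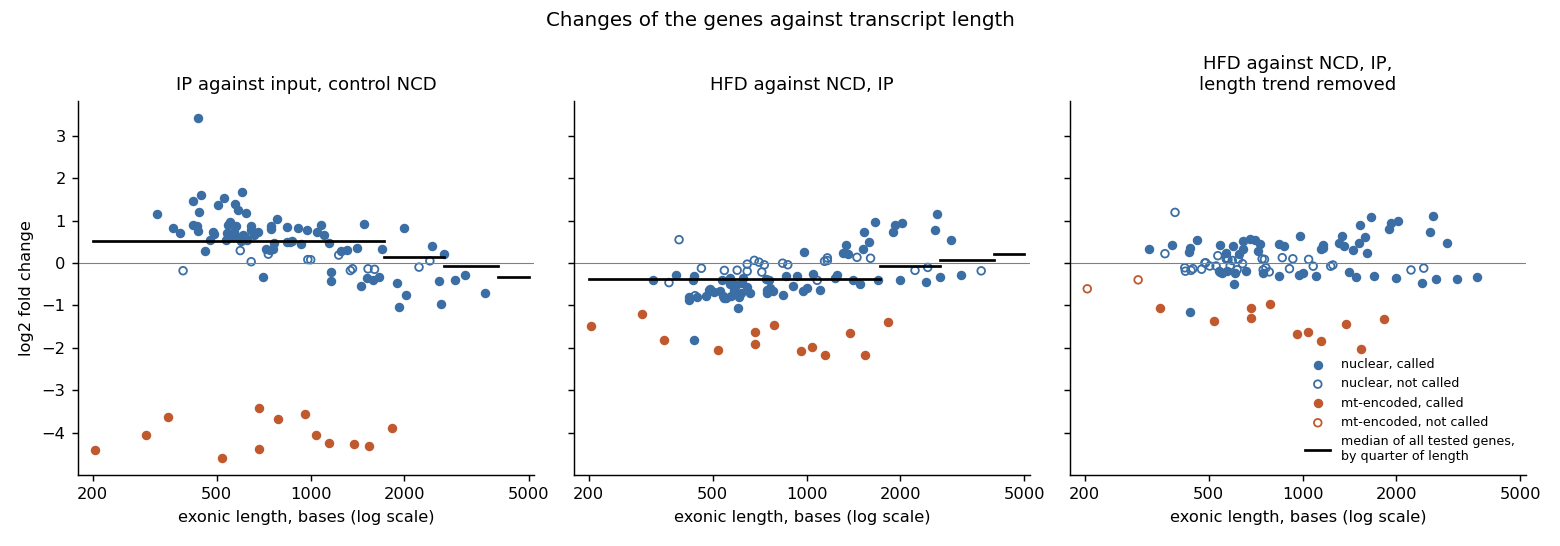
Log2 fold change of each gene against its exonic length (log scale) for the immunoprecipitate against the input in NCD-fed controls (left), HFD against NCD immunoprecipitates (middle), and the latter with the length trend of all genes removed (right). Black lines are medians of all tested genes in 4 bins of length, drawn within the plotted range. Nuclear genes moved with length in the direction of the trend of all genes. With the trend removed, 15 of 91 were higher and 50 lower for the left comparison, against 34.2% and 32.3% of all genes. For the diet comparison 36 were higher and 21 lower, against 22.7% and 26.3% of all genes. The mitochondrial genes lay below the trend.

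The make-up of the nuclear set shifted with these changes. Complex IV genes made up 21.7, 22.3 and 20.5% of the summed nuclear CPM in the NCD-fed control immunoprecipitates, 21.2, 21.2 and 19.3% in IR∆Tan and 17.6, 12.0, 13.7 and 15.9% in HFD-fed ones. The HFD pools lay below all others. Complex V genes made up 32.8, 31.9 and 34.6% in NCD-fed controls and 37.2, 43.9, 41.5 and 39.1% in HFD-fed mice, and there the HFD pools lay above. That share is not a rise of complex V as a whole, since of its 17 genes only Atp5a1 and the abundant Atp5b were higher and 10 were lower. The share of complex I was 27.9, 28.2 and 26.8% and 27.4, 25.2, 26.3 and 26.9%.

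Markers of other cells moved with diet in the same immunoprecipitates. All 19 neuron markers were higher in HFD-fed mice (median 0.82, and none at 0), 8 of 12 oligodendrocyte and 7 of 9 microglia markers were higher, against 26.3% of all genes. Of 19 tanycyte markers 9 were lower and 1 higher (median -0.39), and 10 of 15 ependymal markers were lower, against 25.8% of all genes. Of 13 astrocyte markers 4 were higher and 1 lower (median 0.14). Summed neuron markers stood at 6979, 5804 and 6891 CPM in NCD-fed and 10116, 13307, 10915 and 10139 in HFD-fed immunoprecipitates, and at 15066 to 16082 in the inputs of both diets. Summed tanycyte markers stood at 2474, 2513 and 2126 and 1803, 993, 1324 and 1607 CPM. Among the HFD pools the order of Ndufs1, lowest in the first and highest in the second, was also that of the neuron markers, and the reverse of that of the tanycyte markers. The part of these markers in the changes of the nuclear genes was not tested. With the length trend removed all 19 neuron markers were still higher.

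In the inputs, nuclear genes of the set were higher in HFD-fed mice. Of 91 tested, 46 were higher, against 7.13% of all genes, and 2 lower, against 4.22% (11.3% in either direction), and the median was 0.35 against -0.00 over all genes. Uqcr11 stood at 27.4, 24.4 and 29.2 CPM in NCD-fed and 44.4, 48.8, 49.5 and 47.5 in HFD-fed inputs (log2 fold change 0.77 ± 0.13 (SE), adjusted p = 0.00168), with no overlap. Complex I had 23 genes higher and complex IV 11, with none lower, and complexes V and III had 8 and 3. The assembly factors Ndufaf1 (-0.31 ± 0.10) and Ndufaf7 (-0.30 ± 0.08) were the 2 that were lower. Here too length moved with the result (Pearson r = -0.69 over 91 genes), and without the length trend 15 were higher (5.86% of all genes) and 5 lower (4.83%). The count also rested on single pools, falling to 26, 19 and 21 without NCD pools 1, 2 and 3 and to 27 without HFD pool 3. With library totals it was 25, and over all genes the share of calls that were higher went from 62.8% to 36.6%. With the replicate number, which unrelated pools share, as a block it was 32.

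The diet change in the immunoprecipitate differed from that in the input for most nuclear genes: it was lower for 64, against 18.8% of all genes, and higher for 13, against 21.3%. Uqcr11 had the difference -1.57 ± 0.18 and Cox8a -1.31 ± 0.18 on the log2 scale, while Ndufs1 had 1.46 ± 0.22 and Uqcrc1 0.87 ± 0.14. With the length trend removed 27 were higher, the 13 above among them, and 19 lower, each against 16.4% of all genes.

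No gene of the set passed the test between IR∆Tan and control mice in either fraction. In the immunoprecipitates none of 92 nuclear and 13 mitochondrial genes passed by edgeR, against 0.0962% of all 13518 genes in either direction (0.0148% higher and 0.0814% lower), and 8 nuclear genes and 1 mitochondrial gene had an unadjusted p under 0.05, against 13.8% of all genes. DESeq2 called 1, Cox7a2l, which stood at 192, 184 and 178 CPM in controls and 164, 156 and 149 in IR∆Tan mice. Its pools did not overlap (log2 fold change -0.26 ± 0.06 (SE), adjusted p = 0.145). The next smallest p values belonged to Ndufaf1 (0.31 ± 0.09), mt-Nd5 (-0.35 ± 0.14), Atp5g1 (0.14 ± 0.06) and Ndufs7 (0.19 ± 0.08), with adjusted p from 0.186 to 0.322. The nuclear median was 0.03.

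All 13 mitochondrial genes lay below 0 in IR∆Tan immunoprecipitates, with a median of -0.37 and overlapping pools for each, and all 13 lay below 0 in the inputs as well. Microglia markers were low in the same immunoprecipitates, with 9 of 9 below 0 and 7 at an unadjusted p under 0.05, and summed to 31.3, 30.3 and 37.5 CPM against 49.3, 52.6 and 51.9 in controls, with no overlap. Of 12 oligodendrocyte markers 11 lay below 0. The part of these cells in the mitochondrial values was not tested. mt-Co1 stood at 945, 702 and 1008 CPM, within the range of the NCD-fed controls but for its lowest pool. The median was 0.05 without the first control pool, which had the highest mitochondrial share of all immunoprecipitates. In the inputs none of the 105 genes passed by edgeR or DESeq2, against 0% of all genes by edgeR, and none had an unadjusted p under 0.05, against 189 of 13518 genes. The medians were 0.05 for nuclear and -0.19 for mitochondrial genes. The difference between the fractions was not past the threshold for any of them, against 0.00740% of all genes, by edgeR or DESeq2, and 2 of them had an unadjusted p under 0.05, against 3.83% of all genes.

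Complex IV has subunits that are swapped between tissues. In NCD-fed immunoprecipitates the general forms Cox4i1 (161, 147 and 153 CPM), Cox6a1, Cox6b1, Cox7a2, Cox7b and Cox8a prevailed. Cox6b2, the form best known from testis, stood at 0.614, 0.212 and 0.752 CPM in the inputs and 6.51, 6.27 and 5.44 in the immunoprecipitates, 10.7-fold higher (log2 fold change 3.42 ± 0.39 (SE), adjusted p = 2.11e-06). It was the most enriched gene of the set, at a low level. In HFD-fed immunoprecipitates it was at 1.69, 1.29, 1.18 and 2.59 CPM, below all NCD pools (log2 fold change -1.81 ± 0.32 (SE), adjusted p = 3.18e-04), and in IR∆Tan ones at 6.13, 5.14 and 4.86, overlapping the controls. The heart and muscle forms Cox6a2 and Cox7a1 stood at 9.16, 7.61 and 10.2 and 2.79, 1.85 and 3.40 CPM in NCD-fed immunoprecipitates and were higher there than in the input (0.72 ± 0.21 and 1.21 ± 0.38). With the length trend removed neither passed (-0.11 and 0.12). Their diet changes on the ribosomes did not pass (0.06 ± 0.19 and -0.77 ± 0.34), but that of Cox6a2 passed at 0.56 without the length trend. The lung form Cox4i2 stayed at or under 1.14 CPM in all 20 libraries, and Cox8b and Ndufa4l2 at or under 0.327. They were too low to be tested, apart from Cox4i2 in the comparison of genotypes. Cox5b-ps is listed as a pseudogene of Cox5b, from which reads may have been shared.

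Other genes of mitochondrial energy metabolism were read from lists of known members, beside the 26.3% higher and 25.8% lower of all genes in HFD-fed against NCD-fed immunoprecipitates. In HFD-fed against NCD-fed immunoprecipitates, 15 of 19 genes of the tricarboxylic acid cycle were higher and 2 lower (median 0.59), with Fh1, fumarase, at 1.10 ± 0.10 and malate dehydrogenase Mdh2 at 0.86 ± 0.09. With the length trend removed 16 were higher and 1 lower. All 19 neuron markers were higher in the same immunoprecipitates, and their part in this was not tested. In NCD-fed controls 14 of the 19 cycle genes had been lower in the immunoprecipitate than in the input, against 32.8% of all genes. Of 41 further assembly factors 3 were higher and 20 lower (median -0.31), among them Cox14 (-0.96 ± 0.13) and Coa5 (-0.80 ± 0.08), both of complex IV. Without the length trend 6 were higher and 12 lower.

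Genes that maintain or express mitochondrial DNA did not move as 1 group. Of 23 tested, 3 were higher and 7 lower, no larger a share than over all genes (52.1% in either direction). The mitochondrial RNA polymerase Polrmt (1.09 ± 0.19) and the mRNA-stabilising factor Lrpprc (1.23 ± 0.16) were higher, and the transcription factor Tfb2m was lower (-0.53 ± 0.07). Of 15 nuclear regulators 7 were higher, with the coactivator Ppargc1b at 1.10 ± 0.14, Hcfc1 at 1.00 ± 0.10 and Hif1a at 0.87 ± 0.09, and 4 were lower. Of 7 inhibitors and uncouplers 3 were higher and 1 lower. In IR∆Tan against control immunoprecipitates none of the genes of these 5 lists passed by edgeR, against 0.0962% of all genes. At an unadjusted p under 0.05 there were 11, against 13.8% of all genes.

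Promoters of 76 of the 94 nuclear genes were found in RefSeq tables for GRCm38.p6, as 81 windows of 300 bases around the transcript start. The palindrome of 10 letters bound by nuclear respiratory factor 1, in capitals in the windows given here, lay in 7 of them (8.64%) against 0.971% of all 32851 promoters, read on both strands. The ETS word CCGGAAG lay in 19 (23.5% against 8.86%) and the YY1 word AAGATGGC in 11 (13.6% against 2.75%). A match is not a bound site. For 5 of the 7, the word is shown in capitals with its flanks, since these genes of complexes I, IV and V share it exactly while their mRNAs differed in change.
Atp5g2: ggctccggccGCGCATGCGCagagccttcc
Atp5k: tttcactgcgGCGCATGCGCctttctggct
Cox6a1: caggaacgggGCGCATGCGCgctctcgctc
Ndufa11: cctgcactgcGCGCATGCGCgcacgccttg
Ndufaf4: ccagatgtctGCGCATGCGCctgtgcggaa
They lie at chr15:102671070-102671099 (minus strand), chr5:108434430-108434459 (minus strand), chr5:115349101-115349130 (minus strand), chr17:56717692-56717721 (plus strand) and chr4:24897960-24897989 (plus strand). The 7 genes with the word had a median of -0.18 in HFD-fed against NCD-fed immunoprecipitates, from -0.64 to 0.97, and the 68 others with a promoter -0.39. In NCD-fed mice the medians for immunoprecipitate against input were 0.64 and 0.53.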

How the data were processed

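RNA was sequenced from 10 pools of mouse mediobasal hypothalamus, each as a polysome immunoprecipitate and an input. The authors deposited estimated counts per gene, made with Salmon 0.14.1 on GRCm38.p6, with STAR and DESeq2 1.30.0 also named in the submitters' processing notes. The deposited comparison tables hold log2 fold changes and adjusted p-values from the authors' own tests, which were not used. Their lists of genes were used, for gene names and to set which genes were tested. All columns of per-sample values were used.

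Estimated counts were rounded to whole numbers. Genes listed in the deposited table of a comparison were kept if they passed edgeR's filterByExpr (minimum count 10). In the main fits, all genes thus means genes among the 13845 of either table. Kept genes were scaled by TMM and tested with edgeR 4.0.16 quasi-likelihood fits in R 4.3.3, 1 fit for the diet and 1 for the genotype libraries. The threshold was a Benjamini-Hochberg adjusted p of 0.05 over all genes tested. Both fits share the NCD-fed control pools. Counts per 1000000 (CPM) used TMM-scaled library sizes. Exact permutation tests compared mean CPM over every split of the pools, in Python 3.11.15 with numpy 2.4.6. Each group is replicated by pools, so p-values measure the spread between pools. Scripts were tested on simulated data.

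The length trend was a lowess curve (span 0.3) of each library on exonic length, removed before refitting. Other alternatives were DESeq2 1.42.0, median-ratio or library-total scaling, no count filter, and all genes of the count table. Further ones were other sets of libraries in the fit, a replicate block, and leaving out each pool. The block was the pool for immunoprecipitate against input and for the difference between fractions. For comparisons of diet or genotype in 1 fraction it was the replicate number, which unrelated pools share. The immunoprecipitate and input of a pool come from 1 lysate, so the pool numbers pair them. The correlation of their deviations from the group means was 0.00066 to 0.15, and over 0.1 in 5 of 10 pools.

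Named genes are mt-Co1, Uqcrc1, the mitochondrial genes, complex II, Cyc1, Cycs, tissue isoforms and their partners, the 3 genes with the smallest p per class, 5 for the genotype, genes called against their class, and up to 3 per pathway list. Genes beyond these were named after their values were seen, and some genes that the rule names are not reported here. The members and lists were chosen with earlier results of these data known. Sequences are from RefSeq and the mouse genome, GRCm38.p6.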

Additional observations from a re-analysis of the deposited data

Results flagged for a closer look

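The diet change differed between the fractions by the test of the difference itself (edgeR) for most of the set. It was lower in the immunoprecipitate than in the input for 64 nuclear genes and all 13 mitochondrial genes, against 18.8% of all genes. It was higher for 13 nuclear genes, against 21.3% of all genes. With the length trend removed it was lower for 19 nuclear and 6 mitochondrial genes and higher for 27 nuclear genes, each direction against 16.4% of all genes.

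Single HFD pools lay apart from the other 3 for 4 genes. One HFD input stood at 43.0 CPM for Atp5g2, one at 52.0 for Cox7a2 and one at 115.6 for Cox8a, and one HFD immunoprecipitate stood at 56.4 CPM for Ndufs8. Over 132 gene groups and 16 groups of summed values tested, chance gives about 1 such sample in 20 groups.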

How the results depend on the processing

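The removal of the length trend had the widest effect. The values that follow are without and with the replicate block. In immunoprecipitate against input the removal left 15 and 14 nuclear genes higher and 50 and 49 lower in NCD-fed controls. In IR∆Tan mice 13 and 12 were higher and 46 and 46 lower. In HFD against NCD immunoprecipitates 36 and 35 were higher and 21 and 20 lower. For the difference between the fractions 27 and 27 were higher and 19 and 19 lower. For that difference 6 and 8 mitochondrial genes were lower. In the inputs 15 and 9 nuclear genes were higher in HFD-fed mice, and 5 lower without the block. Log2 fold changes that turned with the length trend removed, without and with the block, were, for immunoprecipitate against input of NCD-fed controls, Sdhb -0.025 and -0.028, Cox6a2 -0.11 and -0.11, Cox4i1 -0.43 and -0.43, Cox6a1 -0.28 and -0.28, Cox6b1 -0.33 and -0.33, Cox7a2 -0.19 and -0.19, Cox8a -0.011 and -0.013, Ndufa4 -0.80 and -0.80, Uqcr10 -0.36 and -0.36, Atp5l -0.092 and -0.091, and, for HFD against NCD immunoprecipitates, Cox4i1 0.086 and 0.069, Cox6a1 0.12 and 0.14, Cox6b1 0.00015 and 0.0012.

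With library totals, 4 nuclear genes were lower in immunoprecipitate against input in NCD-fed controls and 5 in IR∆Tan mice, 54 were higher and 2 lower in HFD-fed mice, and 25 were higher in HFD-fed inputs. Over all genes this setting moved the share of calls that were higher from 52.3 to 73.8% in NCD-fed controls, from 51.1 to 69.8% in IR∆Tan mice, from 57.8 to 91.2% in HFD-fed mice, and from 53.1 to 69.0% for the difference between fractions. In NCD-fed controls it turned Uqcrc1 0.031, Cycs 0.068, Ndufb9 0.024, Atp5c1 0.15. With all genes of the count table, 11 nuclear genes were lower in IR∆Tan immunoprecipitates against input and 1 in HFD-fed inputs. With each fraction fitted alone, 8 nuclear genes were lower in HFD-fed inputs, and 1 mitochondrial gene was lower and 2 were higher. DESeq2 called 1 nuclear gene lower in IR∆Tan immunoprecipitates.

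With the replicate block alone, 32 nuclear genes were higher and 0 lower in HFD-fed inputs, and no other count moved by over 1.5 times. Leaving out each pool in turn gave 19 to 44 nuclear genes higher and 0 to 2 lower in HFD-fed inputs, 20 to 34 lower in immunoprecipitate against input of HFD-fed mice, and 43 to 57 lower in HFD against NCD immunoprecipitates. The causes of these shifts were not tested.

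Depth limited the lowest genes, and Cox8b and Ndufa4l2 did not pass the filter on low counts. Each group held 3 or 4 pools, and nothing but the pools was replicated. Diet followed the libraries that stood apart in ribosomal RNA, and the immunoprecipitates held markers of cells other than tanycytes.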
